A study of Mus musculus with 6 samples.

Results

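Ribosome biogenesis factors are the proteins that transcribe, modify, cut and fold ribosomal RNA and load it with ribosomal proteins, mostly in the nucleolus. The 40 genes described here were chosen by name: every non-control probe that the array files assign to 1 of 40 listed genes was taken, which gave 78 of 56598 probes and 40 of 37323 gene names. Monocytes were purified with magnetic beads out of C57BL/6J bone marrow (mice aged 6 to 8 weeks), and every culture then spent 60 h with M-CSF at 20 ng/mL, which carries monocytes towards macrophages. The 3 control cultures received nothing further and the 3 treated cultures received 100 U of mouse IFN-beta, a type I interferon. Each RNA sample was labelled with Cy3 and hybridised to 1 Agilent array. Nothing in the labels says whether the replicates came from separate mice or separate cultures, so p-values measure only the spread between these samples, which may be technical.

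A ribosome is built from a long precursor RNA made by RNA polymerase I. Small nucleolar RNAs with their protein partners (snoRNPs) mark sites of methylation and pseudouridylation on it, a large complex called the small subunit processome cuts out the RNA of the small subunit, and further factors mature the large subunit. The transcription factor Myc is known as an activator of many of these genes, and macrophages that grow or divide in M-CSF make new ribosomes. Values below are levels on a log2 scale, each relative to the 75th percentile of the probe signals of its array, and differences between such levels are log2 fold changes. A level belongs to its probe, so levels of different genes are not compared.

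The arrays were not evenly spread, and this bears on every comparison below. Controls 1 and 2 were nearly alike and control 3 stood apart from them. The 17 markers of fibroblasts and stroma had summed log2 levels of 9.56 and 9.74 on controls 1 and 2, while control 3 had 5.03 and the treated arrays 4.04 to 5.75. Monocyte and macrophage markers were present throughout, with all 12 well above background on all 6 arrays, among them Csf1r, the receptor for M-CSF, Cd68 and Adgre1. All 10 interferon-stimulated genes set aside to check the labels rose with IFN-beta, with a median log2 fold change of 4.10. Their summed log2 levels were 5.33 and 5.27 on controls 1 and 2, 6.21 on control 3 and 9.45 to 9.71 with IFN-beta. All 10 were higher on control 3 than on controls 1 and 2, as were 73.9% of all genes. Well above background were 63.9% and 63.3% of probes on controls 1 and 2, 52.5% on control 3 and 49.0% to 52.5% on the treated arrays. The 75th percentile of the probe signals was 550 and 528 on controls 1 and 2, 305 on control 3 and 236 to 244 with IFN-beta. No probe was saturated. The part of array brightness in the differences below was not tested. The controls and the first IFN-beta array shared slide 1, and the other two IFN-beta arrays lay on slide 2. For these reasons IFN-beta is compared below with the 3 controls and also with control 3 alone.

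Most of the ribosome biogenesis factors that were tested rose with IFN-beta, and none fell. Of the 40 genes, 39 were bright enough to be tested, 22 of these rose, none fell, and 17 did not pass the test (limma, Benjamini-Hochberg adjusted p under 0.05 over 19500 genes). The same fit called 19.8% of all genes, 11.8% higher and 8.04% lower. The median log2 fold change was 0.76 over the 39 genes, a 1.70-fold difference, against 0.10 over all genes. In 38 of the 39 genes the mean was above that of the controls, as it was for 58.1% of all genes, and in 27 of them every IFN-beta array lay above every control, as for 23.4% of all genes. The changes were moderate, at most 1.38 ± 0.20 for Nolc1 (given with its SE, as are the other genes, from 3 arrays a group), and 9 of the 22 reached 2-fold, as did 6.74% of all genes. Utp18, a factor of the small subunit processome, was the gene left untested, since its 2 probes were too dim. In bulk RNA such as this, fewer cells of a type and less RNA per cell cannot be told apart.

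**Figure D1:**
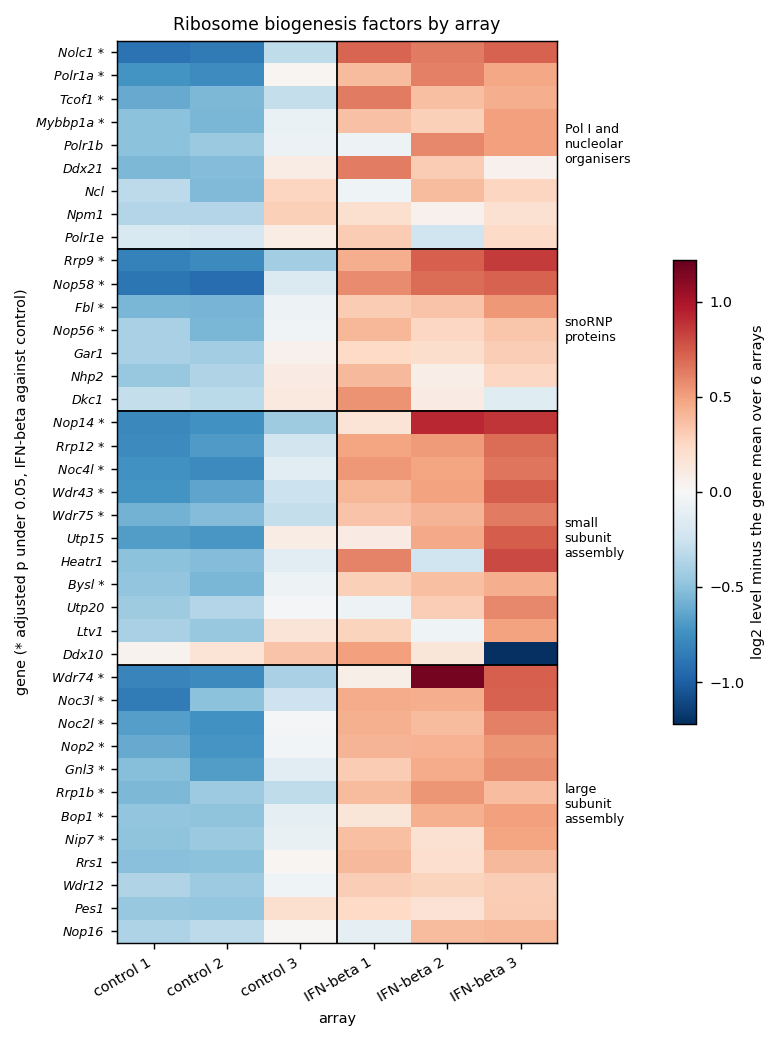
Level of each tested ribosome biogenesis factor on the 6 arrays, as the log2 level minus the mean of that gene over all arrays (red above, blue below), in rows grouped by role and ordered by log2 fold change. Asterisks mark the 22 genes that rose. Controls 1 and 2 are blue for all genes but Ddx10, control 3 is pale, and the IFN-beta arrays are mostly red.

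Control 3 lay between the other controls and the treated arrays. The median over the 39 genes of the level minus the gene mean was -0.51, -0.53 and -0.063 on controls 1, 2 and 3, while it reached 0.37, 0.38 and 0.50 on IFN-beta 1, 2 and 3. All 39 genes were higher on control 3 than on controls 1 and 2, but so were 73.9% of all genes, and the median shift from controls 1 and 2 to control 3 was 0.44 over the 39 genes and 0.35 over all genes. From control 3 to the IFN-beta mean the corresponding medians were 0.46 and -0.10. Replicates were otherwise close: the median difference between controls 1 and 2 was 0.051, and the median SD over the IFN-beta arrays was 0.15, against 0.27 over the controls.

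Against control 3 alone, with 1 control array that is assumed to vary like the treated ones, 2 of the 39 genes rose and none fell, while 5.09% of all 19750 genes tested in that comparison rose and 4.66% fell. The 2 were Nolc1 and Rrp9. The mean of the IFN-beta arrays lay above control 3 for 36 of the 39 genes, against 41.2% of all genes. In 27 of the 39 every IFN-beta array did, against 28.6%. Control 3 was the highest control for all 39 genes, so these are the same 27 genes as in the comparison with the 3 controls. Both comparisons share the IFN-beta arrays and control 3, so they are not independent of each other. The calls of Nolc1 and Rrp9 against control 3 were lost without IFN-beta 2 and without IFN-beta 3. They were also lost with dim probes kept and with scaling to the spike-in control probes, where the differences were 0.58 and 0.69. The call of Rrp9 was lost with the deposited value table as well.

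**Figure D2:**
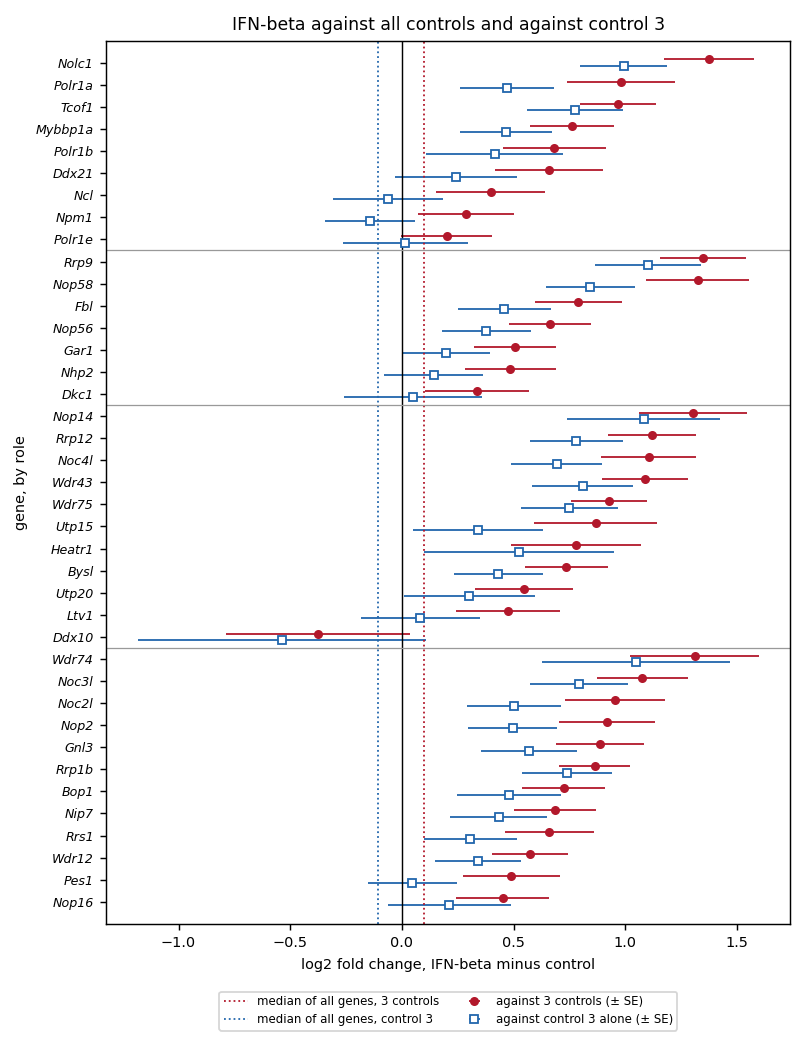
Log2 fold change of each tested gene, IFN-beta minus control, against the 3 controls (filled circles) and against control 3 alone (open squares), with the standard error of the fit. Dotted lines mark the medians of all genes, 0.10 and -0.11. Nearly all circles lie right of both lines, and the squares lie closer to 0 than the circles for every gene but Ddx10.

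Several calls depended on the scaling and on single arrays. With scaling to the spike-in control probes, the median of all genes moved from 0.10 to -0.21 and that of the ribosome biogenesis factors from 0.76 to 0.45, since this scaling shifts all genes of an array alike. On that scale 5 of the 39 rose, against 5.12% of all genes, and against control 3 alone none rose and the median was 0.045. With slide as a block, where IFN-beta 1 alone faces the controls, none of the 39 was called (adjusted p of the 22 from 0.0541 to 0.308) and 3.41% of all genes rose, but all 39 lay above 0 with a median of 0.73. Leaving out control 3 gave 34 of 40 (27.6% of all genes rose), and leaving out control 1 or 2 gave 8 or 11 of 39 (5.60% or 5.97% of all genes). Leaving out IFN-beta 1, 2 or 3 gave 15, 11 or 11 of 39 (7.97%, 5.89% or 6.64% of all genes). Of the 22 calls, 8 held whichever array was left out, those of Nolc1, Tcof1, Nop58, Rrp9, Nop14, Wdr43, Rrp12 and Noc3l.

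The promoters of 34 of the 40 genes were at hand in RefSeq sequence (GRCm38.p6, 250 bases before to 50 after the start site). The genes without one were Fbl, Npm1, Tcof1, Rrp12, Bop1 and Rrs1. The E-box CACGTG, the letters bound by Myc with its partner Max, which read the same on both strands, was found in 7 of 38 promoters of these genes (18.4%), against 7.15% of all 32851 promoters and 9.42% of those of genes tested. Among the genes that rose it was in Nop2, Mybbp1a and Wdr43, and among the others in Pes1, Ltv1, Utp20 and Utp18. By gene that is 3 of 18 that rose and 3 of 15 that were tested and not called, against 11.1% of all genes tested. Other ribosome biogenesis factors, described below, had the E-box in 17.3% of their promoters, and cytosolic ribosomal proteins in 11.8%. The share was thus not particular to the 40 genes. The letters GAAA followed after any 2 bases by GAAA, the core of the element bound by interferon-activated factors, searched on both strands, was found in 1 of the 38, that of Nip7, and in 3.44% of all promoters. A match is a stretch of letters, not a site shown to be bound. The 250 bases before the start are shown for Nop2, which carries its E-box from 60 bases before the start, and for Nolc1 and Rrp9, the genes that rose in both comparisons and hold neither motif. They lie at chr6:125131633-125131882, chr19:46075597-46075846 and chr9:106477059-106477308, all on the plus strand, and capitals mark the E-box.
Nop2: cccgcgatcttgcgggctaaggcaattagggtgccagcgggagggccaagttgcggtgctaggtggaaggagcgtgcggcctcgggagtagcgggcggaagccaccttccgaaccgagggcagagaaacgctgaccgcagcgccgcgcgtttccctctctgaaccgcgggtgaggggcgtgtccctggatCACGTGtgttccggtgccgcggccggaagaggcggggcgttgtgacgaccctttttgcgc
Nolc1: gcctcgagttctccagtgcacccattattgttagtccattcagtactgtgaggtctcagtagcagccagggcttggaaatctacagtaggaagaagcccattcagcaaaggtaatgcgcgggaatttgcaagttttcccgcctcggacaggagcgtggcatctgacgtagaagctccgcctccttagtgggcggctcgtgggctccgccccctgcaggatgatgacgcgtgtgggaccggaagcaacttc
Rrp9: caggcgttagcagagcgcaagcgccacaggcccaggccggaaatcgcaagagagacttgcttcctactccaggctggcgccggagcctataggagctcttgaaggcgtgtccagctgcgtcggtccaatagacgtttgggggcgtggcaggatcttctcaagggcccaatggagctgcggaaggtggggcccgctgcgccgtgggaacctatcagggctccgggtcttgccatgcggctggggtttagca

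Among the genes of RNA polymerase I and the organisers of the nucleolus, 4 of 9 rose, where 11.8% of all genes rose. Nolc1 encodes a chaperone that carries snoRNPs between nucleolus and Cajal bodies. Its level was 2.33, 2.37 and 2.92 on controls 1 to 3 in that order and 3.94, 3.86 and 3.95 on the treated arrays in theirs, the order used throughout. The treated arrays lay close together and well above control 3, the highest of the controls. The difference was 1.38 ± 0.20 against the 3 controls (adjusted p = 0.00368) and 0.99 against control 3 (adjusted p = 0.0334), and its probe lies on chromosome 19 at 46158875 to 46158934 (mm9). Tcof1 encodes treacle, which links transcription by RNA polymerase I to the processing of its product. It stood at 3.07, 3.14 and 3.39 on the controls and 4.32, 4.05 and 4.13 with IFN-beta, without overlap, and rose by 0.97 ± 0.17 (adjusted p = 0.00821, and 0.0863 against control 3). Polr1a, the catalytic subunit of the polymerase, was at 2.15, 2.12 and 2.90 on the controls and 3.27, 3.50 and 3.35 on the treated arrays, so control 3 was nearer to the treated arrays than to its fellow controls. It rose by 0.98 ± 0.24 (adjusted p = 0.0277), or 0.47 against control 3. Mybbp1a, a nucleolar Myb-binding protein gene, rose by 0.76 ± 0.19 (adjusted p = 0.0276), from 4.11, 4.05 and 4.53 to 4.96, 4.90 and 5.11. The calls of Polr1a and Mybbp1a did not survive removal of any single array but control 3 (adjusted p from 0.0612 to 0.109 and from 0.0663 to 0.123).

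The remaining genes of that group did not pass the test. Polr1b, the partner of Polr1a at the active centre, was at 0.68 ± 0.23 (adjusted p = 0.0729), and Polr1e, a subunit outside the core, was at 0.20 ± 0.20 (adjusted p = 0.512). Ddx21, a nucleolar RNA helicase, stood at 0.66 ± 0.24 (adjusted p = 0.0926). Ncl and Npm1 encode the abundant nucleolar proteins nucleolin and nucleophosmin. Ncl had levels of 4.35, 4.14 and 4.94 on the controls and 4.63, 5.06 and 4.94 with IFN-beta, and control 3 lay above 2 of the 3 treated arrays. Npm1 was at 5.10, 5.10 and 5.75 and 5.65, 5.51 and 5.65, with control 3 above all treated arrays. Their differences were 0.40 ± 0.24 (adjusted p = 0.278) and 0.29 ± 0.22 (adjusted p = 0.371), and against control 3 -0.064 and -0.14. With spike-in scaling Npm1 and Polr1e lay at -0.021 and -0.11.

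Of the 7 snoRNP protein genes, 4 rose, where 11.8% of all genes rose. All 4 belong to the box C/D class, which guides ribose methylation. Rrp9 encodes the protein that marks the snoRNP needed for the first cuts of the precursor. Its levels were -0.059, -0.0085 and 0.34 on the controls and 1.21, 1.49 and 1.61 on the treated arrays, all of them well above control 3. Rrp9 rose by 1.35 ± 0.19 (adjusted p = 0.00318), and by 1.10 against control 3 (adjusted p = 0.0444). The core proteins Nop56 and Nop58 sit side by side in the particle. Nop58 was at 1.94, 1.89 and 2.63 on the controls and 3.39, 3.50 and 3.54 with IFN-beta, and Nop56 at 3.80, 3.63 and 4.14 and 4.59, 4.44 and 4.53. Both sets are without overlap, and the rise was 1.32 ± 0.23 for Nop58 (adjusted p = 0.00736) and 0.66 ± 0.18 for Nop56 (adjusted p = 0.0419). Fbl, the methyltransferase fibrillarin, rose by 0.79 ± 0.19 (adjusted p = 0.0283), from 4.80, 4.78 and 5.29 to 5.66, 5.70 and 5.88. The calls of Fbl and Nop56 did not survive removal of any single array but control 3 (adjusted p from 0.0608 to 0.126 and from 0.105 to 0.172).

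The 3 genes of the H/ACA class, which guides pseudouridylation, did not pass the test. Dkc1, the pseudouridine synthase dyskerin, was at -1.46, -1.49 and -1.05 on the controls and -0.62, -1.06 and -1.32 with IFN-beta, with overlapping groups. Its difference was 0.34 ± 0.23 (adjusted p = 0.332), and its other tested probe had the opposite sign. Gar1 lay at 0.51 ± 0.18 (adjusted p = 0.0912) without overlap between the groups, and Nhp2 at 0.48 ± 0.20 (adjusted p = 0.13). Against control 3 the 3 genes were at 0.050, 0.20 and 0.14. Whether the box C/D and H/ACA genes differ from each other was not tested.

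Among the 11 tested genes of small subunit assembly 6 rose, with a median of 0.87 over the 11, where 11.8% of all genes rose. Nop14 and Noc4l encode partners that join the processome together. Nop14 was at -0.99, -0.95 and -0.64 on the controls and -0.044, 0.71 and 0.66 on the treated arrays, so that IFN-beta 1 lay well below its fellow replicates and yet above every control. It rose by 1.30 ± 0.24 (adjusted p = 0.00971), against 1.08 with control 3 alone (adjusted p = 0.121). Noc4l rose by 1.10 ± 0.21 (adjusted p = 0.0112), from 1.74, 1.70 and 2.34 to 3.01, 2.96 and 3.13. Wdr43 and Wdr75 belong to the part of the processome that binds the precursor first. Wdr43 stood at 1.21, 1.29 and 1.67 on the controls and 2.34, 2.43 and 2.67 with IFN-beta, and Wdr75 at 2.07, 2.12 and 2.36 and 2.99, 3.06 and 3.28. In both every treated array was above control 3, and the rises were 1.09 ± 0.19 (adjusted p = 0.008) and 0.93 ± 0.17 (adjusted p = 0.00959). Without control 1 the calls of Noc4l and Wdr75 were lost (adjusted p = 0.0515 and 0.055).

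Later steps of the small subunit are served by Rrp12, which helps its precursors leave the nucleus, and by bystin, the product of Bysl. Rrp12 was at 2.03, 2.11 and 2.58 on the controls and 3.28, 3.32 and 3.48 on the treated arrays, and rose by 1.12 ± 0.20 (adjusted p = 0.00778). Bysl, at 1.76, 1.68 and 2.17 and 2.53, 2.61 and 2.68, rose by 0.73 ± 0.19 (adjusted p = 0.0308), a call that did not survive removal of any single array but control 3 (adjusted p from 0.0647 to 0.135). Ltv1, which acts on late cytoplasmic precursors, was at 0.47 ± 0.23 (adjusted p = 0.185). Of the processome genes, Utp15 was at 0.87 ± 0.27 (adjusted p = 0.0624), Utp20 at 0.55 ± 0.22 (adjusted p = 0.117) and Heatr1 at 0.78 ± 0.29 (adjusted p = 0.0969). Heatr1 varied between treated arrays, with 4.35, 3.50 and 4.55 against 3.24, 3.22 and 3.61 on the controls. Ddx10, an RNA helicase gene, was the sole member with a negative difference, -0.38 ± 0.41 (adjusted p = 0.545). Its levels were -0.31, -0.19 and -0.013 on the controls and 0.14, -0.21 and -1.58 on the treated arrays, and IFN-beta 3 alone lay below every control. Without IFN-beta 3 its difference was 0.14.

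Among the 12 genes of large subunit assembly 8 rose, with a median of 0.79, where 11.8% of all genes rose. Whether the roles differ from each other was not tested. Wdr74, whose protein works with the RNA exosome helicase, had the widest spread between treated arrays of these 12, with 1.09, 2.18 and 1.74 against 0.21, 0.24 and 0.62 on the controls. It rose by 1.31 ± 0.29 (adjusted p = 0.0189). Noc3l and Noc2l, nucleolar proteins of the early large subunit, rose by 1.08 ± 0.20 (adjusted p = 0.0104) and 0.95 ± 0.23 (adjusted p = 0.0243). Noc3l stood at -1.94, -1.59 and -1.34 on the controls and -0.63, -0.64 and -0.37 with IFN-beta. Noc2l stood at 2.76, 2.70 and 3.41 and 3.87, 3.82 and 4.05, and neither gene overlapped between the groups. Nop2, an RNA methyltransferase gene whose promoter was shown with its E-box, went from 3.31, 3.20 and 3.89 to 4.34, 4.35 and 4.46 and rose by 0.92 ± 0.21 (adjusted p = 0.0232). Gnl3, which encodes the GTPase nucleostemin, was at 0.58, 0.42 and 0.98 and 1.41, 1.56 and 1.67 and rose by 0.89 ± 0.20 (adjusted p = 0.0193). Rrp1b, a nucleolar protein gene, rose by 0.86 ± 0.16 (adjusted p = 0.00944), from -0.82, -0.72 and -0.58 to 0.11, 0.26 and 0.095, and Nip7 by 0.69 ± 0.18 (adjusted p = 0.0368), from 2.77, 2.81 and 3.17 to 3.63, 3.44 and 3.74. Of these calls and that of Bop1, all but Noc3l were lost without control 1, and also without IFN-beta 2 (adjusted p from 0.0517 to 0.162 over all arrays whose loss ended a call).

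The trimeric PeBoW complex, made of the products of Pes1, Bop1 and Wdr12, is needed to mature the large subunit RNA. Bop1 was at 2.30, 2.29 and 2.66 on the controls and 2.92, 3.21 and 3.28 with IFN-beta, without overlap, and rose by 0.72 ± 0.19 (adjusted p = 0.0335). Wdr12 narrowly missed the threshold at 0.57 ± 0.17 (adjusted p = 0.0504), with 1.91, 1.84 and 2.22 on the controls and 2.57, 2.54 and 2.57 on the treated arrays, again without overlap. Pes1 stood at 3.92, 3.92 and 4.58 and 4.63, 4.56 and 4.70, and control 3 lay among the treated arrays. Its difference was 0.49 ± 0.22 (adjusted p = 0.15), and 0.047 against control 3. Rrs1, a factor that brings in the smallest ribosomal RNA, was at 0.66 ± 0.20 (adjusted p = 0.0546) and Nop16, a nucleolar protein gene, at 0.45 ± 0.21 (adjusted p = 0.162).

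Other probes of the same genes gave similar differences. Of 78 probes 72 were bright enough to test, and 70 of these were higher with IFN-beta than on the 3 controls and 65 higher than on control 3. Of 21 genes with several such probes, 1, Dkc1, had probes of both signs. The range between probes of a gene had a median of 0.24 and reached 0.87 in Heatr1. Its other probes were at 1.21 and 1.64 against 0.78 ± 0.29 for the brightest, which was the one reported. Heatr1 passed the test with the mean of its probes (1.21, adjusted p = 0.00467) and without IFN-beta 2 (1.10, adjusted p = 0.0306).

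Beyond the 40 genes, other ribosome biogenesis factors moved the same way and the ribosomal proteins did not pass the test. Of 98 further factors, all tested, 32 rose (32.7%) and none fell, where 11.8% of all genes rose and 8.04% fell. Their median was 0.53, although 2 fell with quantile normalization and 1 with the deposited table. Against control 3 alone their median was 0.25, with -0.11 over all genes. With spike-in scaling these medians were -0.16 and -0.52. Ddx24, an RNA helicase gene, was at 4.28, 4.23 and 4.59 on the controls and 5.52, 5.58 and 5.68 with IFN-beta, and rose by 1.23 ± 0.17 (adjusted p = 0.0028). Utp4, of the small subunit processome, went from 1.19, 1.19 and 1.62 to 2.52, 2.37 and 2.62 and rose by 1.17 ± 0.19 (adjusted p = 0.00521). Of 78 cytosolic ribosomal protein genes none was called in limma and none had an unadjusted p under 0.05. Their median was 0.13 against the 3 controls and -0.17 against control 3, and it turned to -0.14, -0.061 and -0.18 with quantile normalization, the deposited table and spike-in scaling. Without control 3, 71 of the 98 factors rose (72.4%), as did 27.6% of all genes. Of 79 ribosomal protein genes 18 rose (22.8%, a smaller share than among all genes) and 1 fell. With control 1 or 2 left out, 6 or 7 of the 98 factors rose (6.12% or 7.14%, against 5.60% or 5.97% of all genes). Leaving out IFN-beta 1, 2 or 3 gave 13, 9 or 5 (13.3%, 9.18% or 5.10%, against 7.97%, 5.89% or 6.64% of all genes). With spike-in scaling 3 rose (3.06%, against 5.12% of all genes). Whether the lists differ from each other was not tested.

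**Figure D3:**
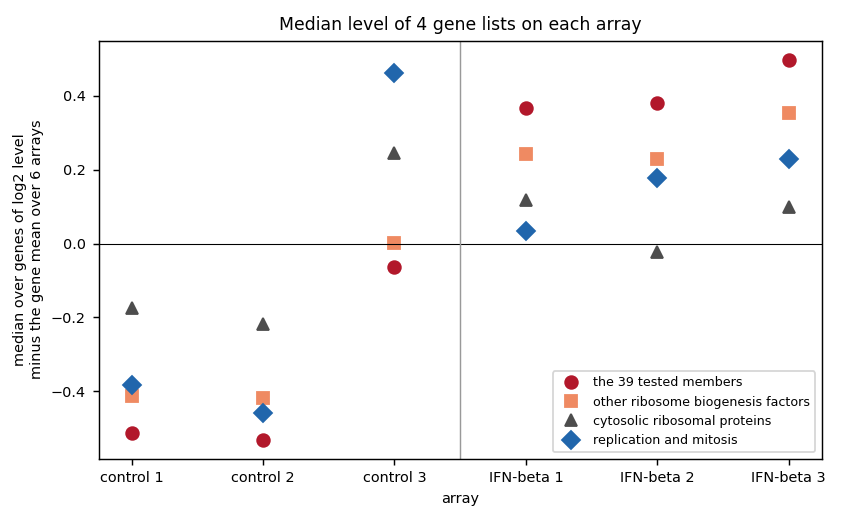
Median over the genes of a list of the log2 level minus the gene mean, for each of the 6 arrays. The 39 ribosome biogenesis factors run from -0.53 on control 2 to 0.50 on IFN-beta 3 with control 3 between the groups, while the ribosomal proteins and the genes of replication and mitosis stand highest on control 3.

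Genes of the Myc network changed in both directions. Of 11 tested, 5 rose and 1 fell, where 11.8% of all genes rose and 8.04% fell. The median of the 11 was 0.16 against the 3 controls and -0.18 against control 3. Myc itself was at 0.99, 1.03 and 1.86 on the controls and 2.40, 2.18 and 2.21 with IFN-beta, so control 3 again stood between. It rose by 0.97 ± 0.26 (adjusted p = 0.0357), against 0.41 with control 3 alone (adjusted p = 0.297), and was called in 7 of 17 other settings (adjusted p from 9.09e-04 to 0.298). Max, the partner through which Myc binds DNA, rose by 1.08 ± 0.20 (adjusted p = 0.0104), from 3.72, 3.74 and 4.23 to 4.98, 4.80 and 5.17, and was called in 12 of 17 other settings (adjusted p from 0.0018 to 0.204). Mxd1 and Mxd4 encode repressors that compete with Myc for Max and went opposite ways. Mxd1 rose by 1.35 ± 0.24 (adjusted p = 0.00861), from 1.18, 1.17 and 1.88 to 2.89, 2.90 and 2.50. Mxd4 fell, from 1.43, 1.48 and 1.19 to -0.55, 0.21 and -0.18 (-1.54 ± 0.23, adjusted p = 0.00363), and did so in 16 of 17 other settings. Against control 3 alone, which is not among those 17 settings, the differences of Max, Mxd1 and Mxd4 were smaller, at 0.75, 0.88 and -1.36. Mlx and Mga, named after their values were seen, were the other members that rose.

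Genes of replication and mitosis gave 1 call in 20 in the fit against the 3 controls, where 11.8% of all genes rose and 8.04% fell. The call was Mcm2, a subunit of the replicative helicase, which rose by 0.66 ± 0.18 (adjusted p = 0.0419). Mcm2 was called in 7 of 17 other settings (adjusted p from 0.00257 to 0.419), and stood at 0.35 against control 3 (adjusted p = 0.324). The median of the 20 genes was 0.26 against the 3 controls and -0.30 against control 3. Against control 3 alone 6 of the 20 lay above 0, as did 41.2% of all genes, and the differences ran from -0.95 to 0.35.

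Markers of other cell types also differed between the arrays. In the fit against the 3 controls, 11.8% of all genes rose and 8.04% fell. Of 12 neutrophil markers 8 rose and none fell, with summed log2 levels of 8.94 to 9.37 on the controls and 9.74 to 10.0 with IFN-beta. Their median difference was 1.38 against the 3 controls and 0.89 against control 3. All 9 tested markers of basophils and mast cells, of 10 on the array, rose, with 3.07 to 3.70 on the controls and 6.13 to 6.69 with IFN-beta. Here the medians were 3.33 and 2.76. Of 6 tested lymphocyte markers 2 rose and 1 fell (1.71 to 2.24 and 2.04 to 2.28), and Cd79a was below background on every array. None of 4 tested erythroid markers was called. Their list summed to 7.33 and 7.21 on controls 1 and 2, 0.13 on control 3 and 1.26 to 1.73 with IFN-beta, so controls 1 and 2 stood apart here as they did for stroma. None of 10 tested stromal markers was called against the 3 controls. Their median difference against control 3 alone was 0.92, with -0.11 over all genes, and Pdgfra was above background on controls 1 and 2 alone. Of 12 monocyte and macrophage markers 2 rose and 3 fell (9.43 to 10.0 and 10.26 to 10.30). The part of these cells in the rise of ribosome biogenesis factors was not tested.

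**Figure D4:**
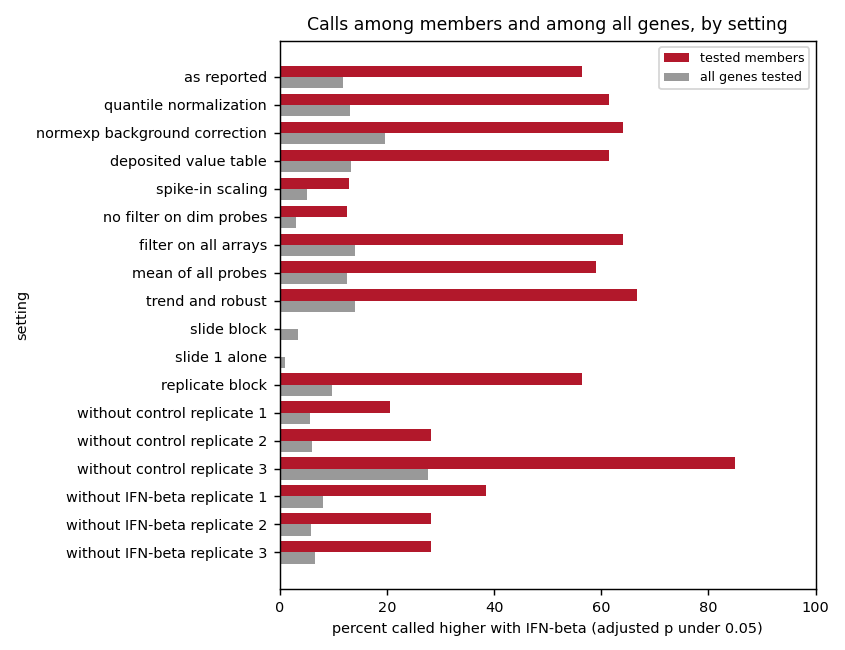
Percent of tested ribosome biogenesis factors (red) and of all genes (grey) called higher with IFN-beta against the controls, as reported and under each other setting. The share among the factors is the larger one in each setting except slide as a block and slide 1 alone, where none of the factors was called.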

How the data were processed

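Arrays were scanned and read with Agilent Feature Extraction 12.0.3.1 (design build mm9), per the file headers, and the deposited scanner files hold detrended and background-adjusted signals as linear intensities, with surrogate values for dim spots. The deposited value table of log2 values, which per the submitters' processing notes involved limma, correlated with log2 of the processed signals at 0.996 to 0.999 per array. Its column medians were 4.80 to 4.82, and its exact normalization is not given in the sources used here, so it served as an alternative. Here log2 of the processed signal minus the 75th percentile of each array was used. Spots of a probe were averaged after outlier spots were dropped, and 7 probes whose spots were all outliers on an array were set aside. A probe was kept if all arrays of 1 group or of both had it well above background, the brightest probe stood for a gene, and limma 3.58.1 (R 4.3.3) was fitted over 19500 genes with 6 arrays, and with 4 arrays for control 3 alone. Probes were named through RefSeq accessions (32989), by the file's symbol (10223) or by the file's name alone (13386). The scripts were tested on simulated data. The number of arrays limits the precision. The members and lists were chosen with earlier results of these data known. All members are described, with values on every array for each one called in either fit and for the 2 with the lowest p in each role. From the other lists, the 2 called genes with the lowest p in each direction and Myc are named. Alternatives covered normalization, background, filter, probe choice, slide, replicate number and each array left out.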

Additional observations from a re-analysis of the deposited data

How the results depend on the processing

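With 3 arrays per group and control 3 apart from its fellow controls, counts depended strongly on single arrays, and slide 2 held treated arrays alone. The cause of each shift below was not tested. Genes changed against the controls numbered 3868 as reported, 1693 with no filter on dim probes, 1039 with slide as a block, 297 on slide 1 alone, and 1829 to 10961 with 1 array left out. The share of higher calls was 59.5%, 26.5% with spike-in scaling and 69.9% with normexp. Ribosome biogenesis factors called numbered 22 as reported, 5 with spike-in scaling (median 0.45), 5 with no filter, 0 with slide as a block, 0 on slide 1 alone and 8 to 34 with 1 array left out. The further factors called numbered 32 as reported, 3, 3, 1 and 0 in those settings and 5 to 71 with 1 array left out. Ribosomal protein genes called numbered 0 as reported, 1 with quantile normalization, 1 with normexp, 1 with the deposited table and 0 to 19 with 1 array left out. Against control 3, genes changed numbered 1925 as reported, 3673 with spike-in scaling, 1073 with no filter, 2922 with trend and robust variance, and 1064 to 3470 with 1 treated array left out. Factors called there numbered 2 as reported, 9 with normexp, 0 with spike-in scaling (median 0.045), 0 with no filter, 4 with the filter on all arrays, 10 with trend and robust variance, and 0 to 8 with 1 treated array left out. Ddx10 was at 0.32 with slide as a block and on slide 1 alone and from -0.72 to 0.14 with 1 array left out (IFN-beta 1 and IFN-beta 3), and Npm1 and Polr1e were at -0.021 and -0.11 with spike-in scaling. Same-numbered arrays deviated together only weakly (r = 0.072, 0.022 and 0.073 for numbers 1, 2 and 3), each array correlating best with its own number, a hint from the data and not the design. With the replicate number as a block 22 factors were called, 21 of them among the 22 reported, and 3264 genes.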
